A study of Mus musculus with 48 samples.

Results

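Metallothioneins and the zinc response were followed in C2C12 cells through 4 genes: the metallothioneins Mt1 and Mt2, the zinc exporter Slc30a1 and the metal-responsive transcription factor Mtf1. Every probe set annotated with one of these symbols was taken, which gave 10 of 45037 probe sets: 2 for Mt1, 1 for Mt2, 2 for Slc30a1 and 5 for Mtf1. The 4 genes belong to 18193 genes measured in all. They were picked on their known responses in these same arrays, the cycloheximide response included, so their values are given as a description without a test.

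C2C12 is an established line of mouse myoblasts that withdraw from the cell cycle and fuse into myotubes once serum is lowered. All 48 RNA samples came from this line, on Affymetrix MOE430v2 arrays, in 16 groups of 3. Growth medium held 20% fetal bovine serum and was sampled 24 h before induction (-24 h) and at 0 h. Differentiation medium held 2% horse serum and was sampled at 0.5, 1, 1.5, 2, 3, 6, 9, 12, 24, 48, 96 and 144 h. Further cells received 50 µM cycloheximide, an inhibitor of protein synthesis, 1 h before the medium was changed, and were sampled at 1 h and 3 h of differentiation, after 2 h and 4 h in the drug. No vehicle control, no drug-treated 0 h cells and no cells kept in growth medium past 0 h are named in the labels. The triplicates came from successive passages of the one line, so the spread between them is that of cultures of the line.

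Metallothioneins are small cysteine-rich proteins that bind zinc and copper and buffer their free levels. Slc30a1, also called ZnT1, sits in the plasma membrane and moves zinc out of the cell. Mtf1 senses zinc through its zinc fingers, enters the nucleus and binds metal response elements in the promoters of Mt1, Mt2 and Slc30a1, so that a rise in free zinc raises storage and export together. Metallothionein genes also respond to glucocorticoids, oxidants and other stress. Cultured myoblasts express both metallothioneins without added metal.

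The 250 bases before the RefSeq start of each gene are shown for the 3 genes that stood higher in cycloheximide, because the metal response element is the feature that they are known to share. The windows come from RefSeq on build GRCm38.p6, and all 3 lie on the forward strand. Capitals mark the core letters of the metal response element, searched as TGCACNC and TGCGCNC on both strands. A match is a description of letters and not a bound site.
Mt1, chr8:94178839-94179088: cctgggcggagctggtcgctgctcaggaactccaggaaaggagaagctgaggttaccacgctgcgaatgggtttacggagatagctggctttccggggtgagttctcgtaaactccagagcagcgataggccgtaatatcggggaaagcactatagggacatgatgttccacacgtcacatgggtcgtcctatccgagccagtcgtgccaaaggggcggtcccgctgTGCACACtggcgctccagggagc
Mt2, chr8:94172368-94172617: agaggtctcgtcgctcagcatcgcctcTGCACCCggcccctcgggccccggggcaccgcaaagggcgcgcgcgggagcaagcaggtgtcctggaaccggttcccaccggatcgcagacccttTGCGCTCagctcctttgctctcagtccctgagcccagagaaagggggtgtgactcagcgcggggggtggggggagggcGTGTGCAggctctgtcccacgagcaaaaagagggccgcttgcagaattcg
Slc30a1, chr1:191906531-191906780: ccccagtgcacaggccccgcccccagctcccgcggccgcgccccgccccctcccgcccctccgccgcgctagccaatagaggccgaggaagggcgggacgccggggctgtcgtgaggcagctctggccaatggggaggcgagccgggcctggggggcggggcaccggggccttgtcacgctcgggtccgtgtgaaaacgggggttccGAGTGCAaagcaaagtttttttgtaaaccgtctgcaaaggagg
Mt2 held 3 matches, with first bases 223, 128 and 50 bases before the start, the last of them on the reverse strand. Mt1 held 1 match, 23 bases before the start, and Slc30a1 held 1 on the reverse strand, 43 bases before the start. These counts and distances hold for the start given in the RefSeq table, and for Mt1 a start further downstream would move the window and could change them. The window of Mtf1 at chr4:124802299-124802548 held 0 matches, which says only that these letters are not in it. Of 32851 such windows in the table, 21.4% held at least 1 match and 1.26% held at least 3. The antioxidant response element core, searched as TGACNNNGC on both strands, matched once each in the windows of Mt2 and Slc30a1, against 10.2% of all windows with at least 1. Mt2 and Mt1 are neighbours on mouse chromosome 8, with 0 annotated genes between them.

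Values are log2 expression from RMA, a method that corrects background, normalizes arrays and summarises the probes of a probe set. Levels are means ± SD of 3 arrays, and differences are log2 differences with the standard error (SE) of the limma fit. Array means ran from 5.02 to 5.05 on the 42 arrays without the drug and from 5.24 to 5.26 on the 6 cycloheximide arrays. Any pair of cycloheximide arrays held exactly the same value for 2.75% to 4.10% of probe sets, against at most 0.149% for pairs of untreated arrays and at most 0.0044% between the sets. The sources used here do not say whether the 6 arrays were summarised in a run of their own, and the part of this in the drug results was not tested. The median gene stood 0.20 higher with cycloheximide at 1 h and 0.19 higher at 3 h. Each drug difference is therefore also given after quantile normalization of all 48 arrays again and after centring each array on 11 housekeeping genes. Quantile normalization put the median gene at -0.01 and -0.02, and the housekeeping genes put it at 0.00 and 0.21. Of the markers fixed for myoblasts and myotubes, 8 of 8 were measured. The myoblast markers went different ways between 0 h and 144 h. Means at these times were 10.05 and 10.00 for Myod1 and 8.35 and 5.85 for Myf5. They were 10.83 and 12.05 for Des and 8.83 and 9.71 for Cdh15. Myod1, from the myoblast list, ran from 8.81 to 10.45 on untreated arrays and from 9.95 to 11.13 with the drug. Myog, a factor of terminal muscle differentiation, ran from 4.96 to 12.95 and from 9.82 to 12.21. Its mean was 5.64 at -24 h and 10.15 at 0 h, both in growth medium. The myotube markers Acta1 (6.72 and 9.83) and Myh3 (3.61 and 5.91) were also higher at 0 h. The 0 h cells, to which later times are compared, thus already held more of these muscle RNAs than the -24 h cells. The part of this in the differences between 0 h and -24 h was not tested. The 10 measured markers of fat, bone and blood cells ran from 2.77 for Adipoq to 6.08 for Cd3e, where the highest array median was 4.24.

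Both metallothioneins were highest in cycloheximide, and among untreated groups the means from 0 h to 6 h were higher than those at -24 h, 48 h and 96 h. The Mt1 probe set with the highest mean was 1422557_s_at, whose suffix marks possible hybridisation to related transcripts. Its level was 10.63 ± 0.03 at -24 h (10.63, 10.60 and 10.67 on the 3 arrays) and 11.16 ± 0.07 at 0 h (11.17, 11.08 and 11.22). All 3 arrays at 0 h lay above all 3 at -24 h, a log2 difference of 0.53 (SE 0.11). After the change of medium Mt1 stayed between 11.05 and 11.54 on all arrays from 0.5 h to 6 h. The means of these 6 groups, and of 0 h and 144 h, followed each other in the order of levels by less than their SDs. The 9 h mean of Mt1 was 10.98 ± 0.10, the 12 h mean 10.90 ± 0.01 and the 24 h mean 10.77 ± 0.18. Its lowest level was 10.24 ± 0.12 at 48 h (10.18, 10.38 and 10.15), and it read 10.66 ± 0.17 at 96 h and 11.20 ± 0.13 at 144 h. The 48 h arrays lay below every other group's arrays, with a log2 difference from 0 h of -0.92 (SE 0.11), and the 144 h arrays overlapped those of 0 h.

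Mt2, on its only probe set, 1428942_at, ran from 10.04 ± 0.23 at -24 h (9.82, 10.02 and 10.27) to 10.89 ± 0.13 at 0 h (10.79, 10.83 and 11.03). The arrays of these groups did not overlap, and the log2 difference was 0.85 (SE 0.14). Its untreated maximum came at 6 h, with 11.43 ± 0.09 (11.49, 11.33 and 11.49), all above the 3 h arrays at 11.22 ± 0.11. The 24 h mean of Mt2 was 10.66 ± 0.17, followed by 9.98 ± 0.21 at 48 h and then 9.97 ± 0.29 at 96 h. The levels at 48 h, 96 h and -24 h were the 3 lowest and differed by less than their SDs. At 144 h Mt2 read 10.52 ± 0.06 (10.47, 10.49 and 10.59), above all arrays of 96 h and below all arrays of 0 h. The log2 difference of 144 h from 0 h was -0.37 (SE 0.14) for Mt2 and 0.04 (SE 0.11) for Mt1. Centring on housekeeping genes gave -0.15 and 0.26.

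**Figure D1:**
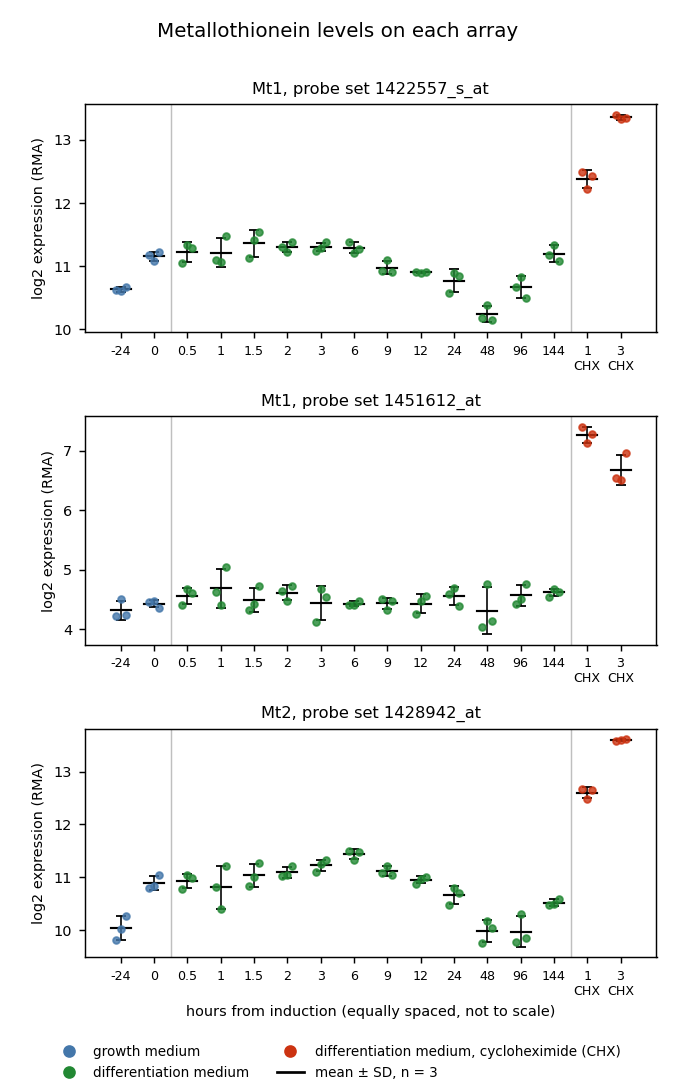
Log2 expression (vertical axis, RMA) of Mt1 on both of its probe sets and of Mt2 in the 16 groups (horizontal axis, hours from induction, equally spaced and not to scale). Points are arrays, colours separate growth medium, differentiation medium and cycloheximide, and black bars are mean ± SD of 3 arrays. All 6 cycloheximide arrays lie above all 42 others in each panel, and the 2 Mt1 probe sets order the drug groups in opposite ways.

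With cycloheximide, Mt1 on 1422557_s_at read 12.38 ± 0.14 at 1 h (12.49, 12.22 and 12.42) against 11.21 ± 0.23 without the drug (11.10, 11.06 and 11.47). At 3 h it read 13.36 ± 0.04 (13.40, 13.32 and 13.34) against 11.31 ± 0.07 (11.24, 11.29 and 11.38). Neither pair of groups overlapped. The log2 differences were 1.17 (SE 0.11) at 1 h and 2.05 (SE 0.11) at 3 h, or 1.07 and 2.01 after quantile normalization and 0.97 and 2.07 after centring on housekeeping genes.

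Mt2 was likewise higher with the drug at both times. It read 12.60 ± 0.10 with the drug at 1 h (12.66, 12.48 and 12.65) against 10.81 ± 0.41 (10.81, 10.39 and 11.21). At 3 h the values were 13.60 ± 0.01 (13.59, 13.60 and 13.61) and 11.22 ± 0.11 (11.11, 11.24 and 11.32). Both drug groups lay above all untreated arrays, and the array maxima on the drug arrays were 14.09 to 14.16. The log2 differences were 1.79 (SE 0.14) and 2.38 (SE 0.14), with 1.72 and 2.34 after quantile normalization and 1.59 and 2.40 after centring on housekeeping genes.

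The second Mt1 probe set, 1451612_at, was near the array medians in every untreated group, with group means from 4.31 to 4.69. As on the other probe set, 48 h and -24 h had the lowest means, but the 48 h arrays (4.03, 4.76 and 4.13) overlapped those of 0 h, with a log2 difference of -0.12 (SE 0.16). At 9, 24 and 96 h its differences from 0 h were 0.0046, 0.13 and 0.14, where those of the other probe set were below 0. On 1451612_at each was smaller than the SE of 0.16, and the arrays overlapped those of 0 h. In cycloheximide this probe set read 7.27 ± 0.13 at 1 h (7.40, 7.13 and 7.28) and 6.68 ± 0.26 at 3 h (6.55, 6.51 and 6.97). Its log2 differences were 2.58 (SE 0.16) and 2.24 (SE 0.16), or 2.23 and 1.80 after quantile normalization. The probe sets thus placed Mt1 higher with the drug at both times but differed in the order of the times. The difference at 3 h minus that at 1 h was 0.88 (SE 0.15) on 1422557_s_at and -0.34 (SE 0.22) on 1451612_at. A constant offset between the drug arrays and the others, for one probe set, cancels in that quantity. For Mt2 it was 0.59 (SE 0.20).

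Slc30a1 had a transient maximum after the change of medium and its highest level with the drug at 3 h. On probe set 1436164_at it read 6.99 ± 0.14 at 0 h (7.09, 6.82 and 7.05), 7.45 ± 0.06 at 1.5 h (7.43, 7.41 and 7.52) and 8.18 ± 0.14 at 2 h (8.03, 8.31 and 8.19). At 3 h it was 7.86 ± 0.16 (7.93, 7.67 and 7.97), and by 6 h it was 6.97 ± 0.20, overlapping 0 h. The arrays of 1.5, 2 and 3 h lay above all those of 0 h, with log2 differences of 0.46, 1.19 and 0.87 (SE 0.23 each). Its levels were lowest late, with means of 6.29 ± 0.17 at 48 h, then 5.98 ± 0.20 at 96 h, then 6.25 ± 0.51 at 144 h, where the arrays read 6.81, 6.10 and 5.83. All of these lay below the 0 h arrays, and the arrays of the 3 late groups overlapped each other. The log2 differences from 0 h were -0.70, -1.005 and -0.74.

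In cycloheximide the exporter read 7.78 ± 0.69 at 1 h on 1436164_at (8.52, 7.66 and 7.17) against 7.07 ± 0.55 without the drug (6.68, 7.70 and 6.83). These groups overlapped. The log2 difference of 0.71 (SE 0.23) was 0.39 after quantile normalization and ran from 0.34 without cycloheximide array 1 to 1.03 without untreated array 2. At 3 h the level was 9.47 ± 0.11 (9.52, 9.54 and 9.34), above all 42 untreated arrays, and the log2 difference was 1.61 (SE 0.23), or 1.42 after quantile normalization and 1.63 on housekeeping genes. At 1 h only 1 of the 3 drug arrays exceeded every untreated array.

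The other Slc30a1 probe set, 1422786_at, was dimmer, with untreated group means from 4.92 to 5.38. Its highest untreated mean was also at 2 h, 5.38 ± 0.13, and all of those arrays lay above 0 h. The 144 h arrays, at 5.29 ± 0.24, overlapped those of 2 h. This probe set did not show the late low levels: at 144 h it stood 0.36 (SE 0.14) above 0 h. With the drug it read 5.94 ± 0.12 at 1 h and 6.82 ± 0.19 at 3 h, with all 6 arrays above all untreated ones. The log2 differences were 0.93 and 1.81, or 0.56 and 1.41 after quantile normalization.

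**Figure D2:**
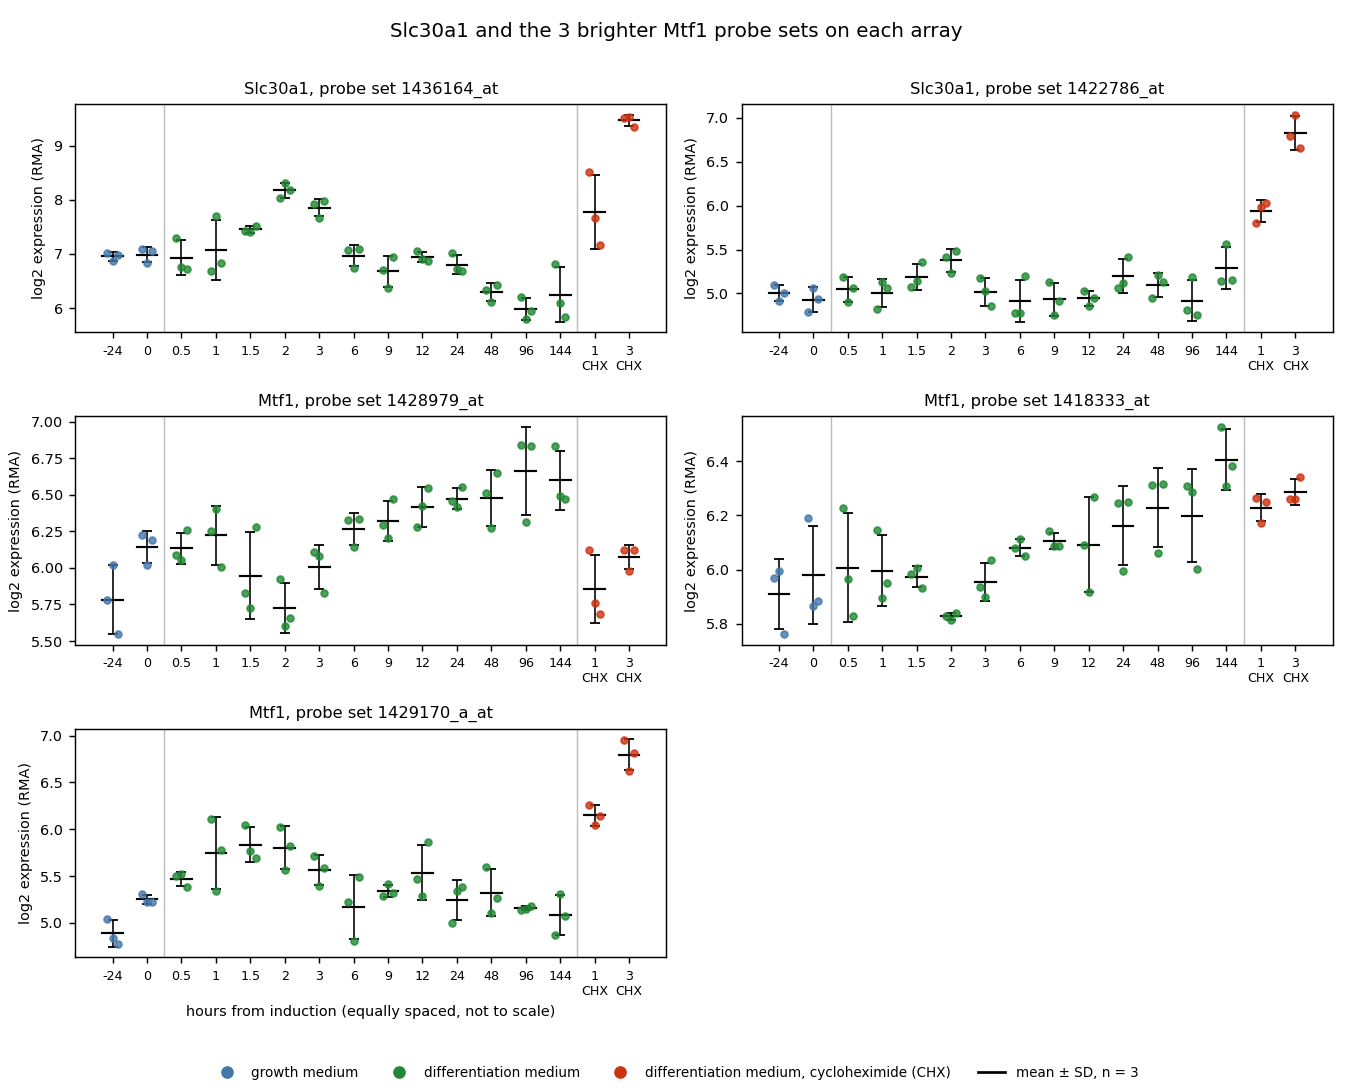
Log2 expression (vertical axis, RMA) of Slc30a1 on both of its probe sets and of Mtf1 on its 3 brighter probe sets in the 16 groups (horizontal axis, hours from induction, equally spaced and not to scale). Points are arrays and bars are mean ± SD of 3 arrays. Slc30a1 peaks at 2 h among untreated groups on both probe sets, whereas the Mtf1 probe sets differ from each other in both time course and drug response.

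The probe sets of Mtf1, the factor that senses zinc, did not follow one course. Probe set 1428979_at, with the highest mean, read 5.78 ± 0.24 at -24 h, 5.73 ± 0.17 at 2 h (5.92, 5.60 and 5.66) and 6.66 ± 0.30 at 96 h (6.84, 6.31 and 6.84). The 2 h arrays lay below and the 96 h arrays above those of 0 h, and 2 h was also the time at which Slc30a1 had its untreated maximum. No group in its order of levels stood clear of the next one by more than the SDs. Probe set 1418333_at had a like course with a smaller span, from 5.83 ± 0.01 at 2 h to 6.41 ± 0.11 at 144 h. Probe set 1429170_a_at ran the other way, with 5.25 ± 0.05 at 0 h against 5.83 ± 0.19 at 1.5 h and 5.80 ± 0.23 at 2 h, with all arrays of both times above 0 h. Untreated arrays of these probe sets ran from 4.78 (1429170_a_at) to 6.84 (1428979_at). Those of the blood cell marker Cd3e ran from 5.07 to 6.08, so the Mtf1 levels are not clearly above those of such a marker.

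With cycloheximide the probe sets again differed, in another grouping. On 1428979_at Mtf1 read 5.86 ± 0.23 at 1 h and 6.07 ± 0.08 at 3 h, differences of -0.37 (SE 0.15) and 0.07 (SE 0.15), with overlapping arrays. On 1418333_at all drug arrays lay above the untreated ones at both times as deposited, with differences of 0.23 and 0.33, but these were -0.14 and -0.04 after quantile normalization. On 1429170_a_at the level at 1 h was 6.15 ± 0.11 against 5.74 ± 0.38 without the drug, with overlapping arrays. At 3 h of the drug it was 6.79 ± 0.17 (6.95, 6.62 and 6.81). The 3 h arrays stood above every untreated array, at a log2 difference of 1.23 (SE 0.17), or 0.86 after quantile normalization. The remaining probe sets, 1440414_at and 1452990_at, had group means from 3.63 to 3.90 and from 3.29 to 3.64, below the array medians. No single direction can be given for Mtf1 RNA under the drug.

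**Figure D3:**
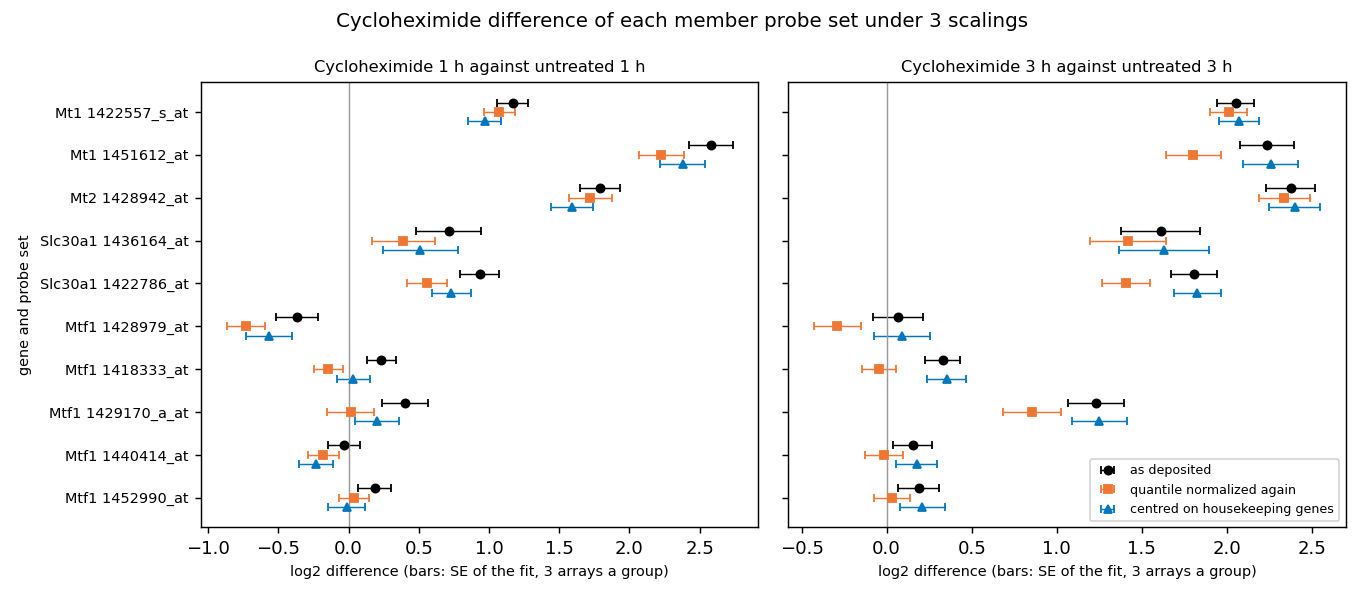
Log2 difference (horizontal axis) of each of the 10 probe sets between cycloheximide and untreated cells at 1 h (left) and 3 h (right), under 3 scalings. Points are differences of means of 3 arrays and bars are the SE of the fit. The Mt1, Mt2 and Slc30a1 probe sets lie above 0 under all 3 scalings at both times, whereas of the Mtf1 probe sets only 1429170_a_at does.

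At 1 h, 5 of the 10 probe sets had all 3 drug arrays above all 3 untreated arrays, and at 3 h 7 of 10 did, with 0 separated downwards at either time. The same separation upwards was seen for 37.3% and 43.2% of all genes and that downwards for 1.60% and 6.21%, so nothing is read from these counts, which the choice of genes used. The shares of genes here and below take 1 probe set per gene, that of highest mean, so their unit differs from that of the counts. All 6 drug arrays lay above all 42 untreated arrays for both Mt1 probe sets, Mt2 and 1 Slc30a1 probe set, and for 5.78% of all genes. In the day before induction 3 of 10 probe sets separated upwards (Mt1, Mt2 and 1 of Mtf1) and 0 downwards, against 15.7% and 13.0% of genes. At 144 h 6 separated upwards and 2 downwards from 0 h, against 19.1% and 17.2%. Those upwards were Mtf1 on 1428979_at, 1418333_at, 1440414_at and 1452990_at, and the dimmer probe sets of Mt1 and Slc30a1. Those downwards were Mt2 and the brighter Slc30a1 probe set, and the brighter Mt1 probe set overlapped. Nothing is read from these counts either.

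Patterns most like that of Mt1 were ranked by Pearson correlation of group means with its brighter probe set. Over all 16 groups the closest of 18192 genes were Klf9 (r = 0.97), a zinc finger factor induced by glucocorticoids, Rdh14 (0.97), a retinol dehydrogenase, Bbs4 (0.97), a cilium protein, Parp8 (0.97) and Ndel1 (0.96). Mt2 ranked 8 with 0.96, Slc30a1 768 with 0.84 and Mtf1 16898 with -0.41, each on its probe set of highest mean. For Mtf1 that was 1428979_at. Its probe set 1429170_a_at, which was not ranked, had its highest means with the drug, 6.79 at 3 h and 6.15 at 1 h. The drug groups weigh heavily in these values, because Mt1 had means of 12.38 and 13.36 there against 10.24 to 11.36 in untreated groups. Klf9 is also on the list of glucocorticoid-responsive genes below. Over the 14 groups without the drug the closest were the matrix-associated Aebp1 (0.97), the secreted protease Htra1 (0.96), Gpm6b (0.93), Vps41 (0.93) and Rnase4 (0.92), and Mt2 ranked 114 with 0.82. All points share the same arrays, and these values are descriptions.

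Other genes of metal handling and of the stimuli known for metallothioneins were counted from 7 lists: 2 further metallothioneins, 9 zinc exporters of the Slc30 family, 14 zinc importers of the Slc39 family, 5 further genes described as targets of Mtf1, 9 genes of copper handling, 7 oxidative stress genes of the Nrf2 type and 8 glucocorticoid-responsive genes. The 54 genes were tested with limma on the whole gene table, and called at a Benjamini-Hochberg adjusted p under 0.05 over 18193 genes. The lists were chosen with earlier results of these data known, so list counts and adjusted p-values are not independent of that choice. In bulk RNA a change in the share of cells that make a transcript and a change in RNA per cell cannot be told apart. Medians of a list are given beside the median of all genes.

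In the day before induction, when both metallothioneins stood higher at its end, 5 of the 54 genes rose and 7 fell, against 13.1% of all genes called (7.26% higher and 5.86% lower). Of the further Mtf1 targets 3 of 5 rose, with a list median of 0.62 against 0.01 for all genes. Ndrg1, a stress-responsive gene, rose by 0.99 (SE 0.19, adjusted p = 0.000239), the selenoprotein Selenow by 0.62 (SE 0.14, adjusted p = 0.00157) and the LIM protein Csrp1 by 0.70 (SE 0.21, adjusted p = 0.0191). Of the Nrf2-type genes 5 of 7 fell, led by the quinone reductase Nqo1, from 8.55 ± 0.16 to 7.07 ± 0.23 (adjusted p = 0.000388). Gclm, a subunit of the enzyme of glutathione synthesis, fell by 0.87, the glutathione reductase Gsr by 0.77 and the sulfiredoxin Srxn1 by 0.61. Of the glucocorticoid-responsive genes the phosphatase Dusp1 rose by 0.86 (SE 0.20, adjusted p = 0.00232) and Errfi1, an inhibitor of growth factor receptors, by 0.66, and the chaperone partner Fkbp5 fell by 0.45. The importer Slc39a10 fell by 0.89.

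Without -24 h array 1 the number of calls fell from 12 to 5, and the calls of Slc39a10 (adjusted p = 0.142), Gclm (0.072), Gsr (0.171), Srxn1 (0.0767), Errfi1 (0.147) and Fkbp5 (0.285) ended. Slc39a10 and Errfi1 also lost theirs without other single arrays (-24 h arrays 2 and 3 and 0 h arrays 1 and 2, and for Errfi1 0 h array 3), at adjusted p of 0.0506 to 0.174. Csrp1 lost its call without -24 h array 3 (0.171), 0 h array 1 (0.0996) or 0 h array 2 (0.0975). Gsr lost its call without -24 h array 2 (0.0719), 0 h array 2 (0.051) or 0 h array 3 (0.155), and Fkbp5 without -24 h array 2 (0.0512), 0 h array 1 (0.135) or 0 h array 3 (0.0911). With all probe sets averaged Selenow (adjusted p = 0.0791), Fkbp5 (0.249) and Errfi1 (0.0585) were not called, and Srxn1 read -0.41. Without probe sets whose suffix marks possible cross-hybridisation, Selenow (adjusted p = 0.46) and Srxn1 (0.054) were not called. Centring on housekeeping genes ended the calls of Slc39a10 (0.0697) and Fkbp5 (0.057). Ndrg1, Nqo1 and Dusp1 kept their calls without any 1 of the 6 arrays compared.

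In the first hours after the change of medium few of the 54 genes were called. Dusp1 rose by 1.37 at 0.5 h (SE 0.20, adjusted p = 0.000498), when 0.0385% of all genes were called, and Dusp1, the kinase Sgk1 and Errfi1 rose at 1 h by 1.01, 1.13 and 1.37 (0.192% of all genes called). At 1.5, 2, 3, 6 and 9 h limma called 0 of 54, with 4, 4, 4, 5 and 7 genes at an unadjusted p under 0.05. Of all genes 0.423%, 0.517%, 0.390%, 0.506% and 1.36% were called at these times, and the fit with the replicate number as a block called 1, 2, 0, 1 and 2 of the 54. At 2 h, where Slc30a1 had its untreated maximum, the median of the other 9 exporters was -0.03 against 0.01 for all genes. At 12 h, with 2.82% of all genes called, Nqo1 fell by 1.09 and Srxn1 by 0.62. Of these early calls all were named after their values were seen. Without 0 h array 1 or 2 or 12 h array 2 or 3 no call was left at 12 h, without 0 h array 3 there was 1, and with the replicate block there were 5.

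At 24 h, 4 of the 54 genes rose and 3 fell, against 14.0% of all genes called (6.56% higher and 7.42% lower). The falls were of the Nrf2 type, with Nqo1 at -1.83 (SE 0.30, adjusted p = 2.38e-05), Srxn1 at -0.93 (adjusted p = 3.78e-05) and Gclm at -0.86 (adjusted p = 0.00423). Slc39a4, Selenow, the copper chaperone Cox17 and the glucocorticoid-induced Tsc22d3 rose by 0.31, 0.47, 0.35 and 0.60. Each of these rises lost its call without some single array. Slc39a4 lost it without any array but 0 h array 2 (adjusted p = 0.0502 to 0.199) and Tsc22d3 without any but 0 h array 1 (0.073 to 0.224). Selenow lost it without 0 h array 3 (0.153) or 24 h array 2 (0.138), and Cox17 without 0 h array 1 (0.0807) or 2 (0.0729) or 24 h array 1 (0.0723) or 3 (0.0792). Without probe sets whose suffix marks possible cross-hybridisation, Cox17 read -0.11 (adjusted p = 0.485) and Selenow was not called (adjusted p = 0.544). With probe sets averaged neither was called (0.283 and 0.199), while Srxn1 read -0.44 and Tsc22d3 0.34 and both were called. Slc39a4 read 3.58 ± 0.07 against 3.28 ± 0.19, below the median of every array, and was not called after quantile normalization (adjusted p = 0.0587). Without 0 h array 3 or 24 h array 1 the 7 calls became 4. Same-numbered arrays of 24 h and 0 h deviated together (r from 0.27 to 0.49), and with the replicate block 11 genes were called.

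At 48 h, when Mt1 was at its lowest, 5 of the 54 genes rose and 9 fell, or 10 and 13 with the replicate block, against 26.7% of all genes called. Slc30a4 and Slc30a7, which load zinc into intracellular compartments, fell by 0.96 and 1.21 (adjusted p = 0.00454 and 0.000603) and the copper pump Atp7a by 1.33 (adjusted p = 0.000793). These 3 were singled out after their values were seen. Centring on housekeeping genes turned the counts at 48 h into 17 risen and 7 fallen. At 96 h 7 rose and 13 fell (32.6% of all genes called), or 19 and 12 on housekeeping genes. At 144 h, when the Mt1 arrays overlapped those of 0 h, 5 rose and 15 fell, against 28.4% of all genes called (13.5% higher and 14.9% lower). Centring on housekeeping genes moved the median of all genes at 144 h from 0.04 to 0.25 and turned these counts into 23 risen and 12 fallen.

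At 144 h 5 of 7 Nrf2-type genes fell, with a list median of -0.88 against 0.04 for all genes. Nqo1 read 4.98 ± 0.32 against 7.07 ± 0.23 at 0 h (adjusted p = 4.62e-07), and Srxn1 fell by 1.23, Txnrd1, the thioredoxin reductase, fell by 1.04 and Gclm fell by 0.88. Among importers, Slc39a10 fell by 1.42 (SE 0.30, adjusted p = 0.00024) and Slc39a6 by 0.80 (SE 0.12, adjusted p = 7.16e-07), both plasma membrane proteins, and 12 of 14 were not called. Among exporters Slc30a7 fell by 0.96 and Slc30a4 fell by 0.91, and Slc30a6 rose by 0.42. Cox17 rose by 0.91 and the copper-zinc superoxide dismutase Sod1 fell by 0.42. Of the further Mtf1 targets Gclc, the catalytic subunit of the enzyme of glutathione synthesis, rose by 0.65, and Csrp1 and the growth factor Pgf each fell by 0.80. Of the glucocorticoid-responsive genes Tsc22d3 and Sgk1 rose by 0.94 and 0.63, and Errfi1 and the clock gene Per1 fell by 1.12 and 0.64.

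Calls at 144 h that rested on 1 array were those of Slc30a7 (adjusted p = 0.067 without 144 h array 3), Slc30a4 (0.0506 without 0 h array 3 and 0.0712 without 144 h array 2), Gclc (0.0665 without 0 h array 3 and 0.0909 without 144 h array 1), Pgf (0.0689 without 0 h array 1 and 0.0801 without 144 h array 1), Sod1 (0.201 without 144 h array 1), Sgk1 (0.0759 without 0 h array 1) and Per1 (0.101 without 0 h array 1 and 0.0551 without 144 h array 1). With the probe sets whose suffix marks possible cross-hybridisation left out, Cox17 read -0.08 (adjusted p = 0.612). With probe sets averaged, Cox17 was 0.41, Slc39a6 -0.23, Srxn1 -0.63, Txnrd1 -0.51 and Tsc22d3 0.51, all still called. Centring on housekeeping genes ended the calls of Sod1 (adjusted p = 0.0993) and Per1 (0.0647), and a fit of the compared arrays alone ended that of Slc30a6 (0.0873).

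With cycloheximide at 1 h 18 of the 54 genes rose and 0 fell, against 24.6% of all genes called (24.2% higher and 0.418% lower), while the median of the lists was 0.22 and that of all genes 0.20. After quantile normalization 5 rose and 1 fell (6.75% of all genes called), and on housekeeping genes 6 rose and 1 fell (8.15%). Tsc22d3, Dusp1, Per1 and Sgk1, of the glucocorticoid-responsive list, were called under all 3 scalings. Tsc22d3, a leucine zipper protein, rose from 7.08 ± 0.50 to 9.79 ± 0.09 (log2 difference 2.70, SE 0.21, adjusted p = 2.6e-12). Dusp1, Per1 and Sgk1 rose by 2.23, 2.19 and 1.98, and by 2.17, 1.85 and 1.89 after quantile normalization. In all, 6 of 8 rose, with a list median of 1.42. The 3 importers and 2 exporters called as deposited were not called after quantile normalization. Slc39a14 read 0.61 as deposited (adjusted p = 0.00135) and 0.30 after it (adjusted p = 0.246), and Slc30a6 0.53 (adjusted p = 0.000621) and 0.25 (adjusted p = 0.217). Without untreated 1 h array 2 the count of 18 fell to 9. Slc30a5, Slc39a5, Slc39a7, Pgf, Slc31a2, Cox17, Slc7a11 and Mt4 were called as deposited, at differences of 0.29 to 0.95 (Slc7a11 at a mean of 3.53 and Mt4 at 4.08 with the drug, below the drug arrays' medians), and were not called after quantile normalization (adjusted p = 0.0549 to 0.913). Leaving out single arrays also ended the calls of Mt4 (any but untreated array 1, 0.0611 to 0.161), Slc39a5 (untreated array 2, 0.134, or drug array 1, 0.0631) and Slc39a7 (untreated array 2, 0.0677, or 3, 0.116, or drug array 2, 0.0655). It ended those of Slc31a2 (untreated array 2, 0.0723, or drug array 2, 0.0532, or 3, 0.0882), Cox17 (untreated array 1, 0.0525, or 2, 0.0626, or drug array 3, 0.138) and Slc7a11 (untreated array 2, 0.125, or drug array 1, 0.0934).

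At 3 h of cycloheximide 17 of the 54 genes rose and 2 fell, against 34.4% of all genes called (30.9% higher and 3.42% lower), with a list median of 0.09 against 0.19. After quantile normalization 10 rose and 14 fell (24.0% of all genes called), so the direction of the lists as a whole depended on the scaling. On housekeeping genes 16 rose and 3 fell (34.2%). The drug difference itself changed between 1 h and 3 h for 9 of the 54 genes, against 4.29% of all genes. All 8 glucocorticoid-responsive genes rose, with a median of 3.08. Their list was chosen with earlier results of these data known, so this is a description and not an independent test. Per1 rose by 4.39 (SE 0.20, adjusted p = 1.01e-19), from 5.40 ± 0.19 to 9.79 ± 0.38, and Sgk1 by 4.30, Tsc22d3 by 4.17 and Fkbp5 by 3.10. With probe sets averaged Tsc22d3 read 2.28 and Fkbp5 2.04, and Tsc22d3 at 1 h read 1.47. The labels name no glucocorticoid, and whether glucocorticoid signalling had a part in these values was not tested.

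Among zinc genes other than the 4, the importer Slc39a14, also called ZIP14, had the largest difference at 3 h. It read 9.60 ± 0.23 (9.48, 9.45 and 9.86) against 7.53 ± 0.14 (7.48, 7.68 and 7.42), a log2 difference of 2.07 (SE 0.14, adjusted p = 8.76e-15), and 1.88 after quantile normalization. The arrays of the groups did not overlap. Of 14 importers 2 rose and 1 fell, which was Slc39a9, by 0.64 (SE 0.11, adjusted p = 2.01e-05), which read -0.07 (adjusted p = 0.466) over the mean of its probe sets. Of 9 other exporters Slc30a6 and Slc30a9 rose by 0.44 and 0.45, and neither was called after quantile normalization (adjusted p = 0.397 and 0.551), nor was the importer Slc39a5, which rose by 0.58 (adjusted p = 0.0976 after it). Slc30a9 lost its call without any array but cycloheximide array 1 (adjusted p = 0.0617 to 0.146). The epithelial metallothionein Mt4 rose by 0.62 (SE 0.11, adjusted p = 1.3e-05) to 4.12 ± 0.11, a level below the medians of the drug arrays, 4.20 to 4.24.

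Of the further Mtf1 targets 3 of 5 rose at 3 h of the drug, with a list median of 0.36. Gclc rose from 8.84 ± 0.16 to 9.85 ± 0.13 (log2 difference 1.01, SE 0.20, adjusted p = 9.95e-05), and held after quantile normalization (0.83, adjusted p = 0.000425). Pgf rose by 0.86 (SE 0.24, adjusted p = 0.00491), but not after quantile normalization (adjusted p = 0.0561) or without untreated 3 h array 3 (0.0568). Selenow, named after its value was seen, was called at 0.36 with overlapping arrays, and Ndrg1 and Csrp1 were not called. Of 9 copper genes Cox17 rose by 0.28, a call lost without 3 h array 1 (0.1) or 2 (0.105), without cycloheximide array 1 (0.0937) or 3 (0.15), and after quantile normalization (0.506). Of 7 Nrf2-type genes 0 rose and Txnrd1 fell by 0.50 (SE 0.12, adjusted p = 0.00128), which averaged over its probe sets was -0.19 (adjusted p = 0.17).

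**Figure D4:**
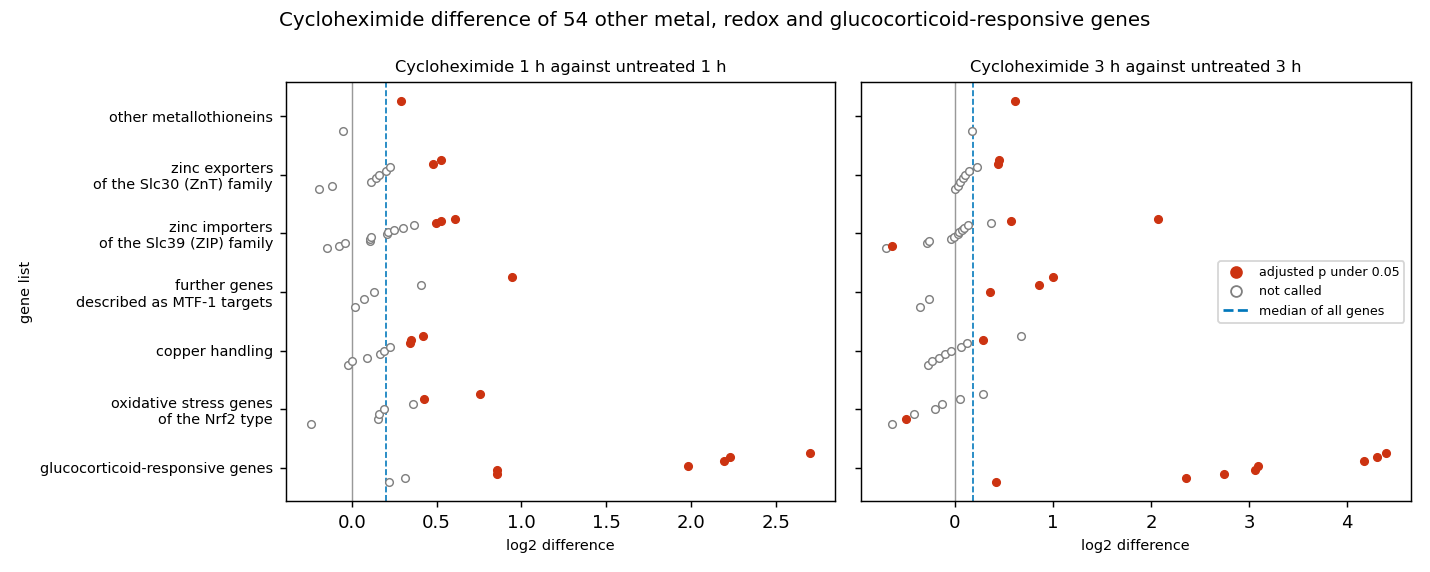
Log2 difference (horizontal axis) between cycloheximide and untreated cells at 1 h (left) and 3 h (right) for the 54 other genes, by list. Filled points had an adjusted p under 0.05 in limma, and the dashed line is the median of all 18193 genes, at 0.20 and 0.19. At 3 h all 8 glucocorticoid-responsive genes are filled, 7 of them beyond 2, and Slc39a14 is the 1 gene of the other lists beyond 2.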

How the data were processed

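Total RNA was taken with Trizol and 5 µg were labelled as biotinylated cRNA, per the labels' protocols. The deposited values are log2 expression that the authors made with RMA, per the submitters' processing notes, and its version is not given in the sources used here. The 48 columns were used as deposited, and 0 columns were left out. Probe sets with exactly 1 symbol in the platform annotation were kept (34945 of 45037, with 64 controls set aside), and a gene was represented by its probe set of highest mean over the 48 arrays, except that all 10 probe sets of the 4 genes are described. A limma model (limma 3.58.1, R 4.3.3) with 1 coefficient per group was fitted to 18193 genes, with 32 residual degrees of freedom, and all tests were two-sided. The number of arrays, 3 per group, limits the precision. The script was tested on simulated data.

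The genes and gene lists were chosen with earlier results of these data known. In the 5 main comparisons, text names follow a rule: per list and direction, up to 4 called genes of largest difference whose arrays did not overlap, and the 5 genes closest to Mt1. Prdx1 had no single-symbol probe set and was not analysed here. Alternatives were trend and robust moderation, quantile normalization again, centring on housekeeping genes, the mean of probe sets, probe sets with _s_at or _x_at left out, a highest group mean of at least 6, the replicate number as a block, the compared arrays alone, and each array left out. For comparisons other than the 5 main ones these were added after seeing the data. Same-numbered arrays deviated together (every correlation over 0.1) for 0.5 h and for 1.5 h to 96 h against 0 h and for cycloheximide at 3 h, but not for 0 h against -24 h, 1 h, 144 h or cycloheximide at 1 h. The series text gives successive passages as the source of the triplicates.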

Additional observations from a re-analysis of the deposited data

Results flagged for a closer look

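The cycloheximide difference itself changed between 1 h and 3 h, by limma's test of that change over 18193 genes (4.29% called), for 9 of the 54 other genes. It was larger at 3 h for Fkbp5 by 2.88 (adjusted p = 1.67e-12), Sgk1 by 2.32 (adjusted p = 2.97e-08), Per1 by 2.20 (adjusted p = 8.33e-07), Errfi1 by 1.88 (adjusted p = 8.45e-05), Klf9 by 1.51 (adjusted p = 0.0341) and Tsc22d3 by 1.47 (adjusted p = 0.00111), all of the glucocorticoid-responsive list. That list was chosen with earlier results of these data known, so the count of 9 is not an independent test. Fkbp5 read 7.94 ± 0.17 with the drug at 1 h against 7.72 ± 0.11, and 10.88 ± 0.08 at 3 h against 7.79 ± 0.25. The importer Slc39a14 had a difference of 0.61 at 1 h and 2.07 at 3 h, a change of 1.47 (adjusted p = 2.55e-06). For Slc39a9 the change was -0.75 (adjusted p = 0.00229), from 0.11 to -0.64, and for Txnrd1 -0.66 (adjusted p = 0.0156), from 0.16 to -0.50. A constant offset of the drug arrays on one probe set cancels in these values. Klf9 lost its call without untreated 1 h array 2 or 3, untreated 3 h array 2, cycloheximide 1 h array 2 or 3, or cycloheximide 3 h array 1 or 3 (adjusted p = 0.0581 to 0.124). Txnrd1 lost its call without untreated 1 h array 2 (0.096) or untreated 3 h array 1 (0.0773), on housekeeping genes (0.0762), and in a fit of the compared arrays alone (0.0901). Averaged over probe sets, Slc39a9 was not called (0.0814), nor was Klf9 (0.0593), and the change was 0.80 for Tsc22d3, 1.82 for Fkbp5 and 0.97 for Slc39a14, all 3 still called.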

How the results depend on the processing

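The Mt1 values turn on the probe set. With _s_at and _x_at probe sets left out, its difference was 0.11 for 0 h against -24 h, and 0.0046, 0.13, -0.12, 0.14 and 0.19 at 9, 24, 48, 96 and 144 h, 2.58 and 2.24 with cycloheximide at 1 h and 3 h, and -0.34 for the change between them, and Cox17 turned to -0.11 at 24 h and -0.0834 at 144 h. With probe sets averaged, Mt1 gave 0.32 for 0 h against -24 h, -0.13 at 24 h and 1.87 at 1 h of the drug, Slc30a1 gave -0.19 at 144 h, and Mtf1 gave 0.0887 at 1.5 h, 0.19 at 144 h, 0.0853 at 1 h of the drug and 0.39 at 3 h, and 1 of the 54 genes was called at 9 h. On housekeeping genes Mt1 was -0.24 at 24 h, 0.26 at 144 h and 0.97 at 1 h of the drug, Mt2 -0.15 at 144 h and 1.59 at 1 h of the drug, and Mtf1 0.67 and -0.57. The counts of called genes there were 1, 16, 24, 31 and 35 at 2, 24, 48, 96 and 144 h (of which 13, 17, 19 and 23 were higher at the last 4 times) and 7 at 1 h of the drug. Over all genes at 144 h, 7322 were higher and 1775 lower on that scale, against 2459 and 2709. After quantile normalization Slc30a1 was 0.39 and Mtf1 -0.73 at 1 h of the drug, Mtf1 was -0.29 at 3 h, and 0 genes were called at 12 h and 6 at 1 h of the drug. Over all genes the drug at 1 h then gave 801 higher and 427 lower, against 4394 and 76, and at 3 h 2342 and 2029, against 5628 and 622. The replicate block gave 1, 2, 1, 2, 5, 11 and 23 calls at 1.5, 2, 6, 9, 12, 24 and 48 h and 16 for the change between drug times, and ended no call of a named gene. It gave 16 for 0 h against -24 h, 22 at 144 h and 21 and 26 with the drug. The compared arrays alone gave 1 call at 1 h and 10 at 1 h of the drug, a highest group mean of at least 6 gave 1 at 2 h, and no _s_at or _x_at gave 1 at 12 h.

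Leaving out each array in turn gave 5 to 10 calls for 0 h against -24 h, 0 to 3 at 12 h, 4 to 5 at 24 h and 9 to 17 at 1 h of the drug. The differences at 1 h of the drug ran from 1.09 to 1.30 for Mt1, 1.58 to 1.99 for Mt2 and 0.34 to 1.03 for Slc30a1. At 1 h without it Mt1 ran from -0.0785 to 0.13, Mt2 from -0.28 to 0.13 and Slc30a1 from -0.23 to 0.28, so no direction is given there. Of such values for the 4 genes, 392 moved by less than the residual SD of the fit, 13 by more with the same sign, and 3 by more with a change of sign. Values near 0 also changed sign within that SD, such as Slc30a1 at 0.5 h (-0.25 to 0.05) and Mt1 at 144 h (-0.03 to 0.10).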
